A study of Arabidopsis thaliana with 6 samples.

Results

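UDP-glycosyltransferases of the UGT superfamily form one of the largest groups of sugar-transferring enzymes in Arabidopsis, and their transcripts were followed here after 4 d of salinity stress. Members were all genes whose symbol is UGT followed by a number, apart from UGT74B1 and UGT74C1, with a probe set that names that 1 gene. This gave 50 genes in 12 families, out of 14276 genes measured. For 46 of them the platform annotation gave the name. The other 4 (UGT74E2, UGT74F2, UGT75B1 and UGT85A1) were named only through the study's list of genes that respond to H2O2, so that an expression response decided their entry. A further 7 genes with such a symbol (UGT71D1, UGT73B2, UGT73B3, UGT73C6, UGT75B2, UGT84A2 and UGT89B1) had no probe set naming them alone and were not analysed here. Each member had 1 probe set, and none of these carried the suffix that marks a probe set shared between genes.

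The UGT enzymes move a sugar, usually glucose, from a UDP-sugar to a small acceptor molecule. Acceptors include plant hormones, phenolic acids, flavonoids, monolignols (the precursors of lignin) and foreign compounds. The attached sugar generally makes the acceptor more soluble and often inactive, so that it can be stored in the vacuole, and beta-glucosidases can release it again. The first number of the gene name gives the family and the letter the subfamily, which rest on protein sequence.

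Wild-type Col-0 plants were grown in a hydroponic system with 6 plants per box and 8 h of light and 16 h of dark per day. There were 3 salt samples from plants whose medium held 150 mM NaCl for 4 d, and 3 control samples from plants in medium without NaCl. The labels describe all 6 as whole rosettes with an age of 28 d. In the study, plants had this age when the treatment began, so that salt plants were older at harvest. For control plants the labels give no time of harvest. Both groups were hybridized to Affymetrix ATH1 arrays, 1 sample per array, and the study describes independent biological replications.

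Values are log2 expression after robust multiarray averaging (RMA), so that a difference of 1 is a 2-fold change. Salt minus control was tested with limma over all 14276 genes, and a gene is said to have risen or fallen where its Benjamini-Hochberg adjusted p was under 0.05. Control arrays correlated with each other at 0.993 to 0.997 and salt arrays at 0.980 to 0.988, the lower salt values being those of salt replicate 1. A listed gene is called measured here where a probe set names it alone. Of 22746 probe sets that are not controls, 7809 had no gene name and 503 named several genes. A gene called not measured may therefore still be on the array. In the lists of UGT genes by substrate, only the 50 members count as measured, and a gene with another symbol does not. Of 14 listed leaf mesophyll genes 4 were measured, and their summed log2 level was 15.1 in control arrays and 14.2 to 14.8 in salt arrays. Of 10 listed root genes 6 were measured, with a summed log2 level of 9.65 to 9.93 in control and 9.08 to 9.61 in salt arrays, and none rose. None of 3 phloem genes was measured, and 1 of 7 flower genes was, SEP3, at 4.25, 4.24 and 4.33 in control arrays and 4.28, 3.97 and 4.05 in salt arrays. All 3 measured guard cell genes of 5 listed passed, MYB60 and FMA with -1.32 and -0.62 and OST1 with 0.63, and their summed log2 level was 8.454 to 8.503 in control and 8.544 to 8.788 in salt arrays. Of 10 listed reference genes only TUB6 was measured, and it fell by 1.01 (adjusted p = 0.0054 from limma). The part of these genes in the results below was not tested. In whole rosettes, fewer cells of a type and less RNA per cell cannot be told apart. The probe set for 25S ribosomal RNA read 7.16, 7.20 and 7.84 in control replicates 1 to 3 and 10.24, 9.05 and 9.48 in salt replicates 1 to 3, and the part of this difference in the results below was not tested.

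After 4 d of NaCl treatment, 21 of the 50 UGT genes rose and 4 fell. Over all genes 11.4% rose and 12.3% fell. Thus 42% of UGT genes stand beside 11.4% and 8% beside 12.3%, or 50% with a change in either direction beside 23.7%. The same shares of all genes stand beside the counts by family and by list below. At least 2-fold higher means were found for 15 members, or 30%, against 5.32% of all genes, and 14 of these 15, or 28%, also passed the test, against 4.93% of all genes. At least 2-fold lower was UGT78D1 alone, or 2%, against 2.68% of all genes, or 2.46% with the test passed as well. The median difference was 0.25 for the UGT genes and -0.03 for all genes. Without the 4 genes that entered through the H2O2 list, the median of the UGT genes was 0.16. Of these 46 genes 17 rose, when 9.77% of all genes named by the annotation did. At least 2-fold higher were 11 of the 46, and the share of all genes named by the annotation at this limit was not computed. Control and salt arrays did not overlap for 31 members, or 62%, against 42.7% of all genes, and these 31 include all 25 genes that passed. Of the 25 UGT genes that did not pass, 18 differed by less than 0.2 in either direction. In the test for a change of over 2-fold (limma treat), UGT74E2, UGT76E12, UGT74F2, UGT73B5 and UGT87A2 passed. Leaving out control replicate 1 or control replicate 2 left 13 risen members each time, when 5.86% and 5.92% of all genes rose, and 0 fallen members, when 3.50% and 3.45% of all genes fell. Without control replicate 3 there were 18 risen members and 1 fallen member, when 8.36% of all genes rose and 6.42% fell. With 3 arrays per group, precision is limited, and for a single gene the smallest p of an exact two-sided permutation test is 0.1.

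Within each family, the genes that passed moved in a single direction. Rises were found in 8 families, falls in 3 others, and in no family did one member rise and another fall, although several families hold only 1 member here. In families 75, 78, 84, 87 and 88 only 1 gene passed, so that both directions could not occur. Over all members the sign was mixed in some families, with 2 positive and 2 negative differences in family 72, and 2 and 1 in family 78. In family 85, 5 of 6 genes rose, in family 73, 4 of 7, in family 76, 4 of 8, in family 74, 3 of 4, in family 71, 2 of 9, and in family 84, 1 of 5. Families 75 and 87 had 1 member each, and both members rose. UGT75B1, the gene of family 75, entered through the H2O2 list, as did UGT74E2 and UGT74F2 of family 74 and UGT85A1 of family 85. The counts of families 74, 75 and 85 are therefore not independent of an expression response. Falls were those of 2 of 4 genes in family 72, 1 of 3 in family 78 and the only gene of family 88. The only gene of family 80, UGT80B1, which glucosylates sterols, had a difference of -0.003 (SE 0.083, adjusted p = 0.984 from limma). The exception to a single direction came without salt replicate 2, when UGT72E2 of family 72 passed as higher with 0.61.

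**Figure D1:**
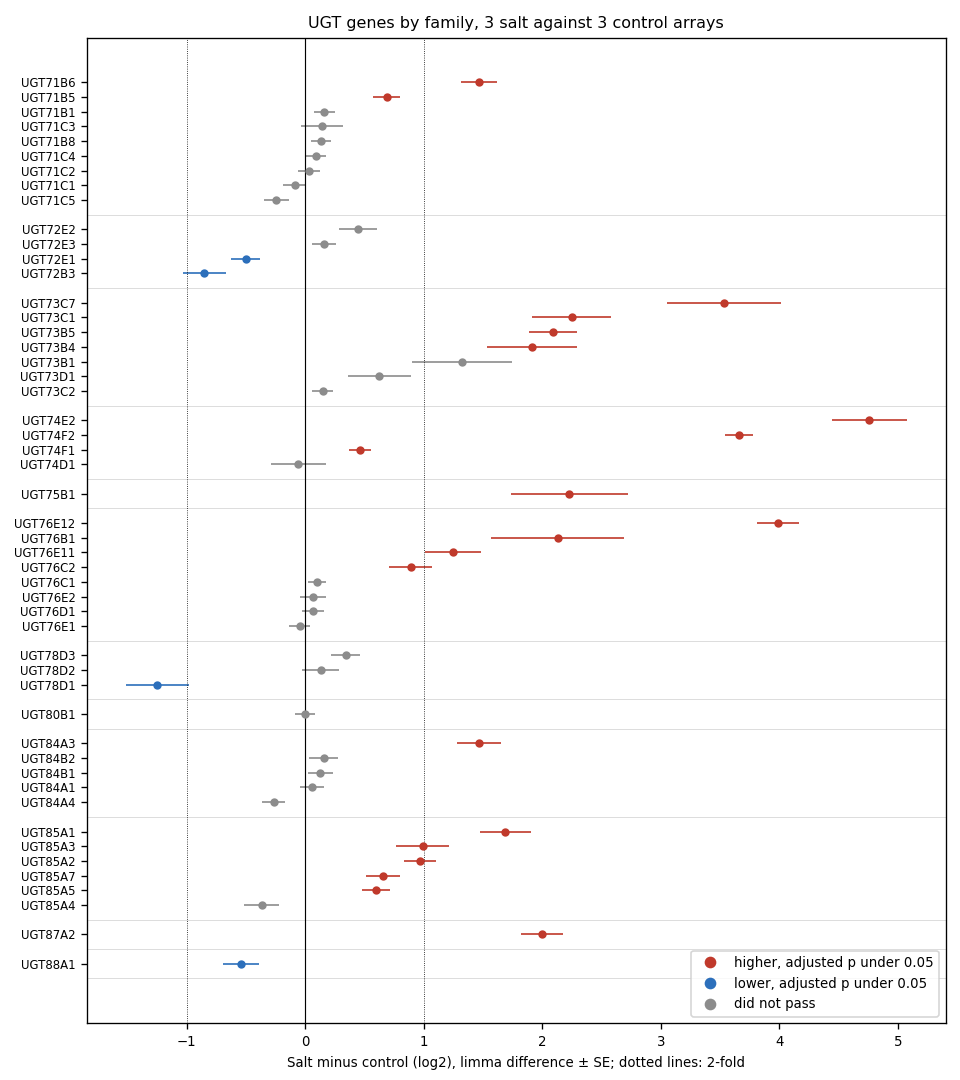
Difference of the 50 UGT genes between 3 salt and 3 control arrays on the log2 scale (horizontal axis, with SE from limma), arranged by family. Red points rose, blue points fell and grey points did not pass; family 73, 74 and 85 genes lie mostly to the right, from 0.15 to 3.53, -0.06 to 4.76 and -0.37 to 1.69, and UGT78D1 lies furthest left at -1.25.

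Genes for enzymes that act on salicylic acid and other benzoic acids were among those with higher expression under salt. Of 6 measured members of this list (8 were listed), 4 rose and none fell, with a median difference of 1.297. UGT74F2, whose enzyme makes the glucose ester of salicylic acid, had log2 values of 8.11, 8.29 and 7.99 in control samples and 11.94, 11.82 and 11.61 in salt samples. This is a difference of 3.66 (SE 0.12, adjusted p = 4e-05 from limma), or 12.6-fold, with little spread in either group. Its neighbour UGT74F1, which encodes the enzyme that makes the glucoside of salicylic acid, was at 4.89, 4.89 and 4.94 in control and at 5.53, 5.31 and 5.27 in salt samples, giving a rise of 0.46 (SE 0.095, adjusted p = 0.015 from limma). The mean signal of UGT74F1 lies below the 30th percentile of all probe sets (5.45), where differences are less certain. The 4 genes that entered through the list of H2O2-responsive genes, UGT74F2 among them, all rose, and their count is not independent of an expression response.

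UGT76B1, whose enzyme glucosylates salicylic acid, N-hydroxypipecolic acid and isoleucic acid, spread widely in both groups. Its values were 4.94, 5.25 and 6.68 in control and 8.77, 7.22 and 7.27 in salt samples, with control replicate 3 within 0.6 of the lower salt arrays. The rise of UGT76B1 was 2.13 (SE 0.56, adjusted p = 0.034 from limma), or 1.62 without salt replicate 1. UGT75B1, which acts on benzoic acids, was at 6.40, 6.17 and 5.49 in control and at 7.79, 7.54 and 9.41 in salt samples. Salt replicate 3 stood 1.62 above the next array, and the rise was 2.23 (SE 0.49, adjusted p = 0.020 from limma). UGT76D1 and UGT71C3 completed the list with 0.07 and 0.14 (adjusted p = 0.644 and 0.617 from limma). The call of UGT75B1 was lost without any 1 of the control arrays (adjusted p up to 0.068), that of UGT76B1 without control replicate 1, control replicate 2 or salt replicate 1 (up to 0.123), and that of UGT74F1 without control replicate 1 or 2 (up to 0.072).

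Among genes for enzymes that act on auxins, UGT74E2 had the largest difference of all UGT genes and the other 3 measured genes did not pass. UGT74E2, which encodes an enzyme that glucosylates indole-3-butyric acid, read 6.39, 5.95 and 5.43 in control samples and 11.16, 10.15 and 10.74 in salt samples. The difference was 4.76 (SE 0.31, adjusted p = 0.00033 from limma), or 27.1-fold, and stayed between 4.51 and 5.03 with 1 array left out. UGT74D1, whose enzyme acts on indole-3-acetic acid and related auxins, had 7.95, 7.89 and 7.67 in control and 7.63, 7.39 and 8.32 in salt samples, and its difference of -0.06 (SE 0.23, adjusted p = 0.890 from limma) turned to 0.14 without salt replicate 2. UGT84B1 and UGT84B2, which lie next to each other, differed by 0.13 and 0.16, both at signals below the 30th percentile, and UGT84B2 passed only without salt replicate 2, with 0.29.

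Of 4 genes listed for cytokinins all were measured, and 3 rose. UGT85A1, whose enzyme adds glucose to the side chain of trans-zeatin, went from 8.24, 8.65 and 8.94 in control to 10.42, 9.95 and 10.52 in salt samples, a rise of 1.69 (SE 0.22, adjusted p = 0.0030 from limma) with non-overlapping groups. UGT73C1, which encodes an enzyme that acts on zeatin and on foreign compounds such as trinitrotoluene, was low in control samples at 4.68, 4.59 and 4.66 and reached 6.89, 6.15 and 7.63 in salt samples. It rose by 2.25 (SE 0.33, adjusted p = 0.0052 from limma). The neighbours UGT76C1 and UGT76C2 both encode enzymes that attach glucose to the purine ring of cytokinins, but differed in their values. UGT76C2 was at 7.01, 7.25 and 7.25 in control and at 8.47, 7.89 and 7.82 in salt samples, a rise of 0.89 (SE 0.18, adjusted p = 0.015 from limma) that did not pass without control replicate 1 or 2 (adjusted p up to 0.067). UGT76C1 had 7.02, 6.94 and 6.96 in control and 7.07, 7.10 and 7.04 in salt samples, a difference of 0.10 (SE 0.075, adjusted p = 0.402 from limma).

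One of 3 measured genes for ABA glucosylation rose. UGT71B6, whose enzyme makes the glucose ester of ABA, a storage form, was at 5.14, 5.03 and 5.24 in control and at 6.81, 6.28 and 6.72 in salt samples, and rose by 1.47 (SE 0.15, adjusted p = 0.0014 from limma). Its neighbour UGT71B8 had 0.14 (SE 0.085, adjusted p = 0.299 from limma) at a signal below the 30th percentile. UGT71C5, for another enzyme that makes this ester, was at 6.92, 7.08 and 7.18 in control and at 6.71, 6.93 and 6.81 in salt samples, with overlapping groups and a difference of -0.24 (SE 0.10, adjusted p = 0.136 from limma). The 2 genes listed for brassinosteroids were not among the members, and whether the array measures them under another symbol was not examined.

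Family 73 had a median of 1.91 over 7 genes, several of which encode enzymes that glucosylate foreign compounds and are induced in pathogen and redox responses. This median was the highest among families of more than 4 members, a limit that was not set beforehand. Family 74, with 4 members, had 2.06, and the single genes of families 75 and 87 had 2.23 and 2.0. UGT73B5 rose from 5.83, 5.87 and 5.95 in control to 7.94, 7.57 and 8.41 in salt samples, by 2.09 (SE 0.20, adjusted p = 0.0011 from limma). Its neighbour UGT73B4 rose from 5.16, 5.19 and 5.46 to 7.14, 6.37 and 8.04, by 1.91 (SE 0.38, adjusted p = 0.014 from limma), with the salt arrays in the same order. UGT73C7 was near 4.3 in each control sample, at 4.36, 4.22 and 4.31, and at 8.84, 7.97 and 6.68 in salt samples. Its rise of 3.53 (SE 0.48, adjusted p = 0.0039 from limma) carried the largest spread among salt arrays of any UGT gene, an SD of 1.09, and lay between 3.03 and 4.11 with 1 array left out. Like UGT76E12, UGT73C1, UGT73B4 and UGT71B6, UGT73C7 had a control mean under the 30th percentile of mean signal (5.45), which makes the size of these 5 rises less certain.

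UGT73B1, at least 2-fold higher in the mean, did not pass. It read 5.80, 6.09 and 5.89 in control and 6.68, 6.73 and 8.34 in salt samples, so that the groups did not overlap but 1 salt array stood 1.61 above the next. The difference was 1.32 (SE 0.42, adjusted p = 0.062 from limma), and it passed without salt replicate 1, with 1.61, and without salt replicate 3, with 0.78. UGT73C2, next to UGT73C1, had 0.15 (SE 0.089, adjusted p = 0.277 from limma) at a signal below the 30th percentile, and UGT73D1, next to UGT73C7, had 0.63 (SE 0.26, adjusted p = 0.131 from limma). The call of UGT73B4 was lost without control replicate 1 or 2 (adjusted p up to 0.060).

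Genes for enzymes of phenylpropanoid acceptors did not share a direction. UGT78D1, which encodes a rhamnosyltransferase of flavonols, had the largest fall of any UGT gene, from 8.51, 8.64 and 8.16 in control to 6.59, 7.58 and 7.40 in salt samples. It fell by 1.25 (SE 0.26, adjusted p = 0.017 from limma), and its difference was -0.95 without salt replicate 1. UGT78D2, for a glucosyltransferase of flavonols and anthocyanidins, was at 8.22, 8.25 and 7.84 in control and at 8.42, 8.28 and 8.00 in salt samples, with overlapping groups and a difference of 0.13 (SE 0.15, adjusted p = 0.597 from limma). UGT78D3, for an arabinosyltransferase of flavonols, had 0.34 (adjusted p = 0.088 from limma) and a signal below the 30th percentile. These were 3 of 9 genes listed for flavonols and anthocyanins.

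In the monolignol list 4 of 5 genes were measured, none rose and 2 fell. UGT72B3 fell from 7.25, 7.07 and 7.24 in control to 5.92, 6.65 and 6.44 in salt samples, by 0.85 (SE 0.18, adjusted p = 0.018 from limma). UGT72E1, whose enzyme acts on coniferyl aldehyde, went from 8.56, 8.52 and 8.73 to 7.97, 8.33 and 8.00, a fall by 0.50 (SE 0.12, adjusted p = 0.026 from limma). UGT72E2, whose enzyme makes coniferin and syringin, had 0.44 (SE 0.16, adjusted p = 0.089 from limma), and UGT72E3, its closest relative, 0.16 (SE 0.10, adjusted p = 0.304 from limma). Among the 3 measured genes of subfamily 84A, whose enzymes make glucose esters of hydroxycinnamic acids such as sinapate, UGT84A3 rose from 7.79, 7.64 and 7.35 to 9.11, 8.72 and 9.35, by 1.47 (SE 0.18, adjusted p = 0.0028 from limma). UGT84A1 and UGT84A4, which lie beside it on either side, had 0.06 and -0.26 (adjusted p = 0.713 and 0.095 from limma). The calls of UGT72B3 and UGT72E1 were lost without any 1 of the control arrays (adjusted p up to 0.075 and 0.087), that of UGT72E1 also without salt replicate 1 or 3, and that of UGT78D1 without control replicate 1 or 2 (adjusted p up to 0.072).

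A further 17 UGT genes were in none of the substrate lists, and 8 of them rose and 1 fell, beside 11.4% and 12.3% of all genes. UGT76E12 had the second largest difference of all UGT genes, from 4.43, 4.43 and 4.25 in control to 8.71, 8.37 and 8.00 in salt samples. Its rise was 3.99 (SE 0.18, adjusted p = 0.00012 from limma), from control values under the 30th percentile of mean signal. UGT87A2, which has a role in flowering time, was already well expressed in control samples at 9.40, 9.05 and 9.55, and was at 11.64, 11.17 and 11.19 in salt samples, a rise of 2.0 (SE 0.18, adjusted p = 0.00084 from limma). UGT76E11 rose by 1.25 (SE 0.23, adjusted p = 0.012 from limma), from 7.97, 7.84 and 7.27 to 8.84, 8.65 and 9.33. UGT71B5 rose by 0.69 (SE 0.11, adjusted p = 0.0077 from limma). UGT88A1, the only gene of its family, was at 11.28, 11.24 and 11.27 in control and at 10.37, 10.86 and 10.94 in salt samples, and fell by 0.54 (SE 0.15, adjusted p = 0.043 from limma). Its call was lost without any 1 of the control arrays or salt replicate 2 (adjusted p up to 0.133) and under quantile normalization.

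**Figure D2:**
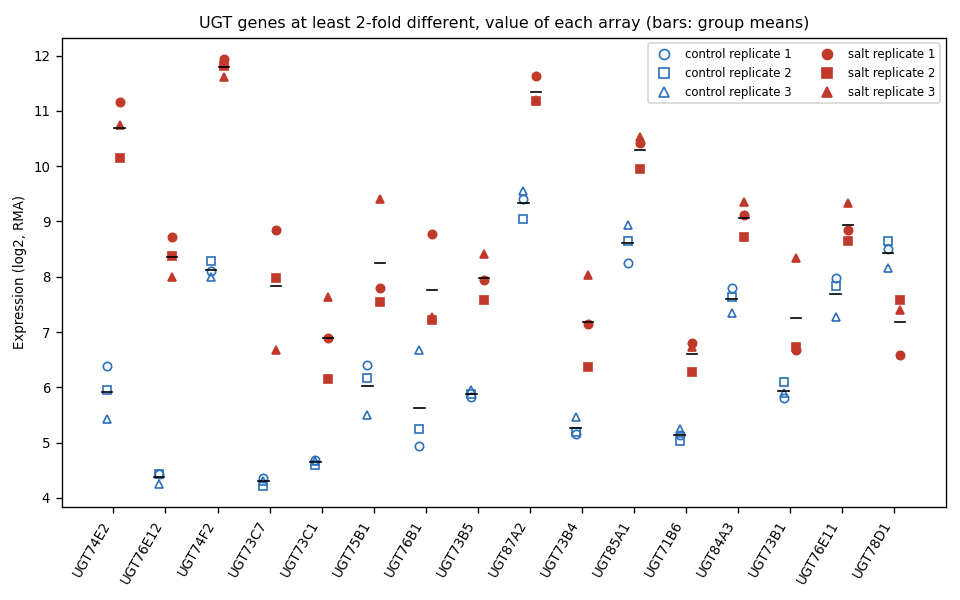
Log2 RMA expression (vertical axis) in each of 3 control arrays (blue, open) and 3 salt arrays (red, filled) for the UGT genes that passed with at least a 2-fold difference and for UGT73B1, which did not pass, with a bar at each group mean. UGT74F2 arrays lie close together in both groups, whereas the salt arrays of UGT73C7 run from 6.68 to 8.84 and those of UGT75B1 from 7.54 to 9.41.

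Many UGT genes lie next to each other in the genome, and 33 of the 50 members formed 14 such groups of 2 to 5 genes with at most 1 other protein-coding gene between neighbours. In 4 groups every member rose, in 5 groups no member passed, and in 5 groups some members rose and others did not pass. Of the genes in these groups 16 rose and none fell, and of the 17 members outside them 5 rose and 4 fell. A member whose only UGT neighbours were not analysed counts as outside, so that outside does not mean alone in the genome. Over all genes 11.4% rose and 12.3% fell, and the difference between members in and outside groups was not tested. UGT74F2 and UGT85A1 in the groups, and UGT74E2 and UGT75B1 outside them, entered through the H2O2 list. The largest group was that of 5 genes of subfamily 85A on chromosome 1 (AT1G22340 to AT1G22400), all of which rose. Beside UGT85A1 these were UGT85A3 with 0.99 (SE 0.22, adjusted p = 0.020 from limma), UGT85A2 with 0.97 (SE 0.14, adjusted p = 0.0044), UGT85A7 with 0.66 (SE 0.14, adjusted p = 0.019) and UGT85A5 with 0.60 (SE 0.12, adjusted p = 0.013). UGT85A4 (AT1G78270), which lies elsewhere on that chromosome, had 7.45, 7.10 and 7.20 in control and 6.65, 6.89 and 7.11 in salt samples, a difference of -0.37 (SE 0.15, adjusted p = 0.116 from limma). The difference between UGT85A4 and the group was not tested, and the calls of UGT85A3 and UGT85A7 were lost without any 1 of the control arrays and that of UGT85A5 without control replicate 1 or 2 (adjusted p up to 0.084, 0.071 and 0.058).

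Subfamily 76E fell into pairs. UGT76E11 and UGT76E12 (AT3G46670 and AT3G46660) both rose, whereas UGT76E1 and UGT76E2 (AT5G59580 and AT5G59590) had -0.05 and 0.07 (adjusted p = 0.738 and 0.702 from limma). In subfamily 71C, all 5 measured genes, which lie in groups of 3 and 2, had differences between -0.24 and 0.14 and none passed. Neighbours often have similar sequences, and how far their probe sets bind each other's transcripts was not tested.

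**Figure D3:**
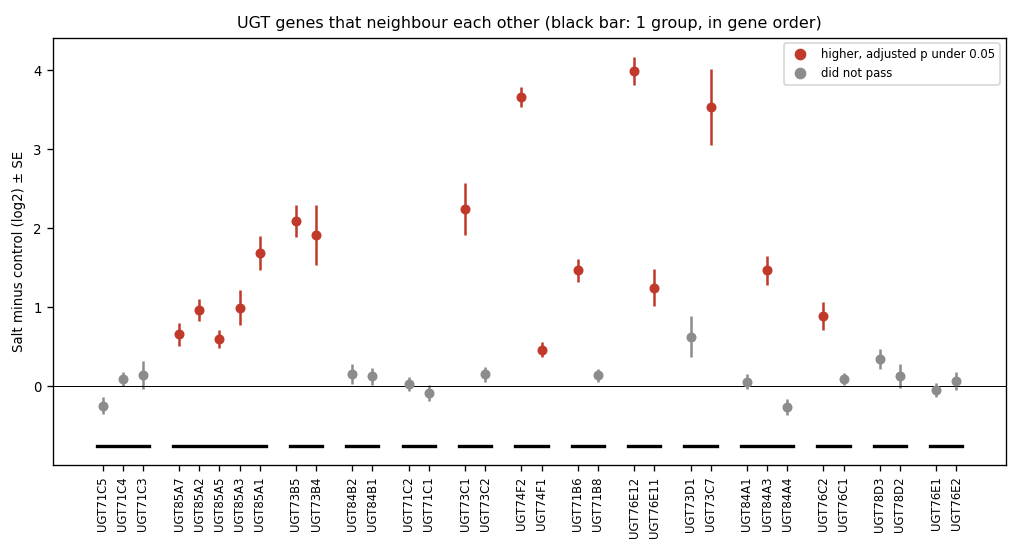
Difference between salt and control arrays on the log2 scale (vertical axis, with SE from limma) for the 33 UGT genes in 14 groups of neighbours, each group underlined in black and its genes in chromosome order. Red points rose and grey points did not pass; the group of 5 genes of subfamily 85A lies between 0.60 and 1.69, and the 3 genes UGT71C5, UGT71C4 and UGT71C3 lie between -0.24 and 0.14.

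The salt arrays differed from each other in the UGT genes, and not in 1 order. Taken over all 50 members, the median difference of an array from the control mean was 0.40 in salt replicate 1, 0.19 in salt replicate 2 and 0.32 in salt replicate 3. Over the 14 genes that passed with at least a 2-fold higher mean, salt replicate 2 was lowest for 11, salt replicate 3 was lowest for 3, and salt replicates 1 and 3 were each highest for 7. The 25S ribosomal RNA signal was likewise lowest in salt replicate 2, at 9.05. Its part in the order was not tested.

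For 9 members 1 salt array stood more than 0.5 above the next, a limit set after the values were seen. Salt replicate 3 was this array for 6 genes, namely UGT75B1, UGT73B1, UGT73B4, UGT73C1, UGT73D1 and UGT74D1, with gaps of 0.69 to 1.62. Salt replicate 1 was this array for 3 genes, namely UGT76B1 with a gap of 1.5, UGT73C7 with 0.87 and UGT76C2 with 0.58. UGT73C7 had its lowest salt value in salt replicate 3, in which UGT73C1 and UGT73B4 had their highest. The median SD among salt arrays was 0.25 for UGT genes and 0.16 for all genes, and among control arrays 0.10 and 0.09.

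**Figure D4:**
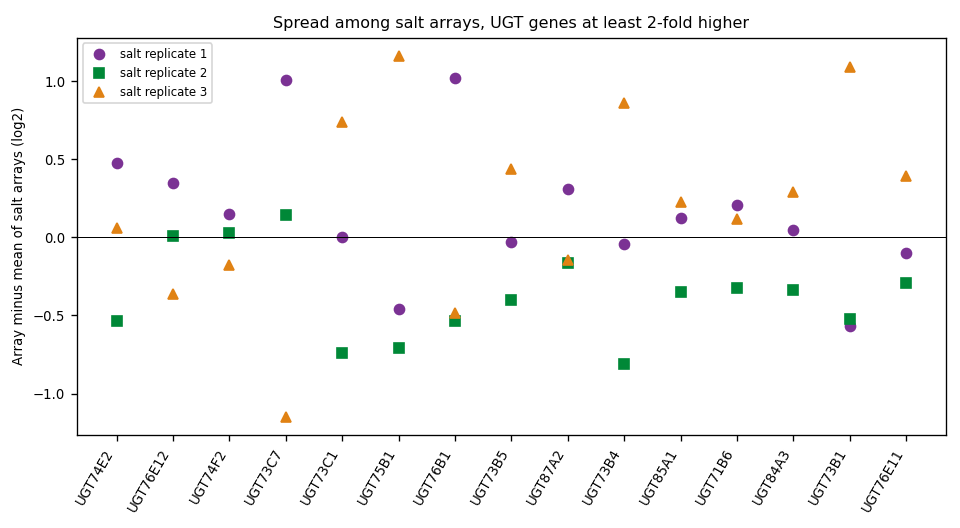
Value of each salt array minus the mean of the 3 salt arrays on the log2 scale (vertical axis) for the 15 UGT genes with at least a 2-fold higher mean. Salt replicate 3 stands highest for UGT75B1, UGT73B1, UGT73B4 and UGT73C1, and salt replicate 1 for UGT73C7 and UGT76B1.

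Of 19 genes listed for the supply of UDP-sugars, the donors of the UGT reaction, 6 were measured. Of these, 2 rose and 1 fell, beside 11.4% and 12.3% of all genes. SUS1, which encodes a sucrose synthase that forms UDP-glucose from sucrose, went from 8.27, 8.23 and 8.33 in control to 11.60, 11.27 and 10.59 in salt samples, a rise of 2.88 (SE 0.24, adjusted p = 0.00069 from limma). UGE3, for an epimerase of UDP-glucose and UDP-galactose, rose by 1.26 (SE 0.24, adjusted p = 0.013 from limma). UGP3, for a plastid UDP-glucose pyrophosphorylase that serves sulfolipid synthesis, fell by 0.68 (SE 0.15, adjusted p = 0.020 from limma), and SUS4, UGD2 and USP had 0.25, 0.05 and -0.22 and did not pass.

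Beta-glucosidases release the sugar from some of these conjugates. Of 27 measured genes (47 were listed) 7 rose, each at least 2-fold, and 4 fell, with a median difference of 0.003, beside the 11.4% of all genes that rose and the 12.3% that fell. The mean signal of 14 of the 27 genes lies below the 30th percentile (5.45), where differences are less certain. DIN2, also called BGLU30, had the largest difference with 5.90, followed by BGLU11 with 2.82 (SE 0.31, adjusted p = 0.0018 from limma) and BGLU45 with 2.44 (SE 0.15, adjusted p = 0.00027 from limma). BGLU45 and BGLU46, which encode enzymes that act on monolignol glucosides, both rose, BGLU46 by 1.45 (SE 0.25, adjusted p = 0.0084 from limma), from 4.04, 4.37 and 4.46 to 6.29, 5.32 and 5.62. The control means of DIN2, BGLU45 and BGLU46 (5.35, 4.65 and 4.29) were under the 30th percentile, which makes the size of their rises less certain. BGLU18, whose enzyme frees ABA from its glucose ester, was at 12.84, 12.84 and 12.58 in control and at 12.17, 12.91 and 12.23 in salt samples, with overlapping groups and a difference of -0.32 (SE 0.20, adjusted p = 0.313 from limma). BGLU10, which also acts on this ester, rose by 1.55 (SE 0.17, adjusted p = 0.0018 from limma). Whether enzymes of other genes in the list, risen or fallen, act on this ester was not examined here. The 4 beta-glucosidase genes that fell were BGLU33 with -0.92 (SE 0.15, adjusted p = 0.0068 from limma), BGLU47 with -0.73, BGLU44 with -0.53 and BGLU43 with -0.33.

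**Figure D5:**
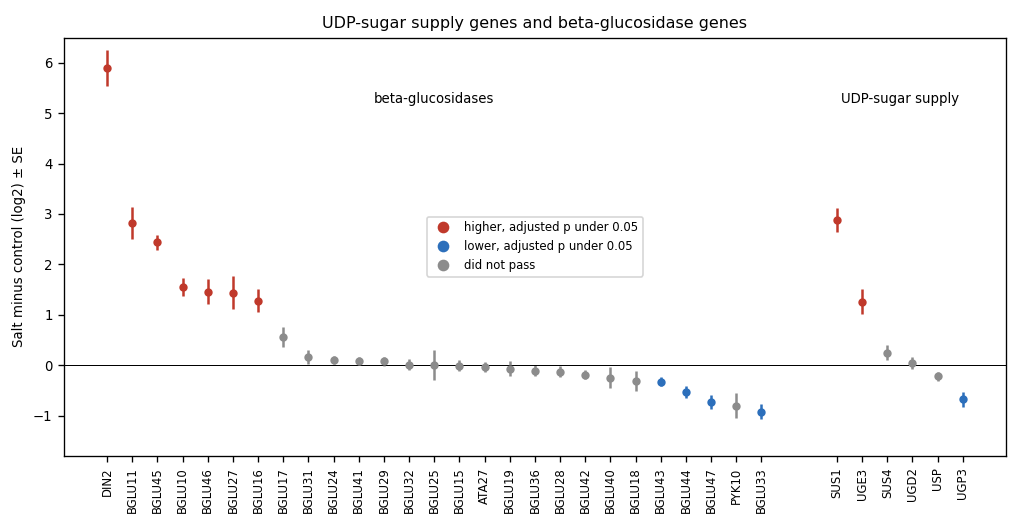
Difference between salt and control arrays on the log2 scale (vertical axis, with SE from limma) for 6 genes of UDP-sugar supply and 27 beta-glucosidase genes. SUS1 at 2.88 and DIN2 at 5.90 lead their lists, and most grey points, which did not pass, lie near 0.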

How the data were processed

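RNA from whole rosettes was hybridized to Affymetrix ATH1 arrays. Per probe set, the deposited values are log2 expression, which the authors obtained from the probe intensities by RMA. The labels also list GCRMA without a role. No further normalization was applied, and array data carry no counts, so that the number of arrays (3 per group) limits the precision. Names of probe sets came from the platform annotation (13513 with 1 gene, symbols updated by gene ID with a RefSeq table of assembly TAIR10.1) or, for 921, only through the study's table of H2O2-responsive genes, of which 1995 rows were used. The probe set with the highest mean stood for a gene. Of 22746 probe sets that are not controls, 7809 had no gene name, and 503 with several genes were not named.

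Salt minus control was fitted in limma 3.58.1 (lmFit, eBayes, no pairing, R 4.3.3) over 14276 genes. The step was tested on simulated data. Members and gene lists were chosen with earlier results of these data known. Genes given array by array were those that passed with at least a 2-fold difference, those that fell, the leading gene of each substrate list and the 3 with the largest SD among salt arrays, and others were added after their values were seen. In other lists the 3 largest changes were named, and others were added after their values were seen. A ranking of members by level was dropped, because probe sets differ in brightness. Alternatives were to leave out each array, to add the replicate number as a block, to centre arrays on their medians or make their quantiles equal, to drop probe sets under the 30th or 50th percentile of signal, to weight arrays, to fit eBayes with a trend and robustly, to test without moderation or with limma treat at a 2-fold minimum, to average probe sets of a gene and to use annotation names alone. Python 3.11.15, pandas 2.3.3, numpy 2.4.6 and matplotlib 3.10.9 were used. Sequences of promoters, proteins and probes were not used here.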

Additional observations from a re-analysis of the deposited data

How the results depend on the processing

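In none of the 17 alternatives did a UGT gene that had passed change direction, and UGT74E2, UGT76E12, UGT74F2, UGT73B5 and UGT87A2 passed in each one in which they were tested. Counts of risen and fallen UGT genes were 7 and 0 with an unmoderated test (4.07% and 2.33% of all genes), 5 and 0 with limma treat (1.1% and 0.028%), and 12 and 3 with the 50th percentile filter (20% and 21.2%), under which 23 members were tested and 8 were at least 2-fold higher. This filter uses the mean of all arrays, and UGT74E2, UGT75B1, UGT73B5 and UGT85A5 stayed only through their salt values, so that its counts support nothing. With 1 array left out, 13 to 23 genes rose and 0 to 3 fell, beside 5.86% to 11.9% and 3.45% to 13.2% of all genes. At least 2-fold lower were 0 to 2, and the share of all genes at this limit was not computed. Same-numbered arrays did not deviate together (correlations of -0.124, 0.052 and -0.139). With 3 arrays per group, such values cannot show whether same-numbered samples were grown or harvested together. With the replicate number as a block 21 genes rose and 2 fell (9.79% and 9.42% of all genes). In that fit UGT76B1, UGT72E1 and UGT88A1 did not pass whereas UGT73D1 did. UGT73B1 passed with array weights and the 30th percentile filter. Some genes that did not pass turned sign. With array weights UGT84A1 had -0.026 and UGT71C2 -0.008. With 1 array left out, differences ran from -0.022 to 0.338 for UGT71C3, from -0.002 to 0.247 for UGT78D2, from -0.002 to 0.163 for UGT76E2, from -0.037 to 0.083 for UGT71C2, from -0.057 to 0.023 for UGT80B1 and from -0.327 to 0.138 for UGT74D1. The cause of these changes was not tested. Arrays give no depth, and the 10 members below the 30th percentile of mean signal are the least certain.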
